A study of Mus musculus with 4 samples.

Results

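The trophoblast regulators described here are 5 transcription factor genes, Cdx2, Esx1, Elf5, Hand1 and Ascl2, chosen by name and matched to array probes by RefSeq accession. They are 5 of 33378 genes or transcripts on a single-colour Agilent mouse array, and all 5 were among the 21216 that were well above background on at least 1 array and entered the test. Each had 1 probe, and each probe 1 spot per array. RNA was read from 4 samples: induced pluripotent stem (iPS) lines 7 and 13, which were made from bone marrow mononuclear cells (n = 2 lines), E14 embryonic stem (ES) cells (n = 1) and the mononuclear cells of marrow (BMMNCs, n = 1). Both iPS lines were labelled C57BL/6 and came from cells of Oct4-EGFP transgenic mice. E14, a long-established ES line, was labelled strain 129, and the BMMNCs C57BL/6. The reprogramming factors, the age of the mice and the passage of the lines are not given in the sources used here. ES and iPS cells had grown in serum and LIF over a feeder layer of irradiated embryonic fibroblasts, whose number was reduced on gelatin before RNA extraction. Strain and cell line differ together between the iPS lines and the ES cells, so their parts in any difference cannot be told apart.

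The trophoblast is the first lineage that the mouse embryo sets aside, and it builds the fetal part of the placenta, while the inner cell mass, from which ES cells come, builds the embryo. CDX2 and POU5F1 repress each other as these lineages separate, and ELF5 then holds trophoblast stem cells in their fate. In ES cells the Elf5 promoter is known to be kept silent by DNA methylation. HAND1, ASCL2 and ESX1 act later, in giant cells, spongiotrophoblast and labyrinth.

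Promoter windows of the genes are shown because members of the set stood higher in the same arrays, as described below, and because the windows differ in CpG content. RefSeq windows of assembly GRCm38.p6, from 250 bases before to 50 bases after the annotated start, were available for 4 of the 5 genes, Elf5 having 2 starts. CpG dinucleotides, the sites of DNA methylation, are in capitals, and each sequence runs 5′ to 3′ on the strand of its gene. The Cdx2 window lies at chr5:147307200-147307499 (minus strand), that of Esx1 at chrX:137120277-137120576 (minus strand), and those of Elf5 at chr2:103411848-103412147 and chr2:103423818-103424117 (both plus strand).
Cdx2: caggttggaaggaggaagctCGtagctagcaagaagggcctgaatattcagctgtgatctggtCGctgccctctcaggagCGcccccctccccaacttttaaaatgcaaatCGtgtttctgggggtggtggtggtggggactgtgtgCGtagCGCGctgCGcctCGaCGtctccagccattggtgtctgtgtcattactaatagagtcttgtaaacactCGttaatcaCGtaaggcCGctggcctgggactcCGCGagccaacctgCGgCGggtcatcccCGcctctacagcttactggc
Esx1: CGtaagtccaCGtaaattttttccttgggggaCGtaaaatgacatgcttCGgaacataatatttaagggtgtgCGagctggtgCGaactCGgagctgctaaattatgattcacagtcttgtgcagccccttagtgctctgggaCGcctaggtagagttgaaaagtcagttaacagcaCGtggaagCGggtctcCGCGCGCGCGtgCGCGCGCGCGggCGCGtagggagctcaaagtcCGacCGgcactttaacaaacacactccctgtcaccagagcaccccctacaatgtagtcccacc
Elf5, upstream start: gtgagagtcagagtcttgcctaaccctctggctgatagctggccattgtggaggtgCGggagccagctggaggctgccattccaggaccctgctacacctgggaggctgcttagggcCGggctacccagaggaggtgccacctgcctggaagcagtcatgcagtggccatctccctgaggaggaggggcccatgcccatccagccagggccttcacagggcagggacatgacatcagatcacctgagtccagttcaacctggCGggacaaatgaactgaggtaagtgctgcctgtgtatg
Elf5, downstream start: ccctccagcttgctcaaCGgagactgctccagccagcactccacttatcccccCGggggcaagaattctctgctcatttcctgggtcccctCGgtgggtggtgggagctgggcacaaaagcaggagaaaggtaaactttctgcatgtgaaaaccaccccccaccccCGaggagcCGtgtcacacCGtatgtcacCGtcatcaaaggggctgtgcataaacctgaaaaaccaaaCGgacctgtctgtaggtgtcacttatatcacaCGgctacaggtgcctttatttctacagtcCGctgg

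The Esx1 window held 24 CpGs and the Cdx2 window 18, and 80% and 70.3% of the 32851 promoter windows of this length held fewer. The Elf5 windows held 3 CpGs at the upstream start and 10 at the downstream start, more than in 23.3% and 56.5% of windows, against a median of 7. The Ascl2 window, at chr7:142969215-142969514 (minus strand), held 23 CpGs. Because HAND1 and ASCL2 are basic helix-loop-helix (bHLH) factors, whose family binds the E-box, the letters CANNTG were searched on both strands. All 5 windows held at least 1 match: 1 in Cdx2, 1 in Esx1, 5 and 2 in the upstream and downstream Elf5 windows, and 2 in Ascl2. An E-box match stood in 72.3% of all windows. The caudal letters TTTATNG, searched on both strands, were in none of the 5 windows and in 10.9% of all windows. No methylation or binding was measured on these arrays.

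The 4 arrays lay on 1 slide and were scanned together, no spot was saturated, and the share of probes well above background ran between 54.6% and 59.0%. Levels below are log2 signals relative to the 75th percentile of each array, which lay at 1120 (iPS 7), 1123 (iPS 13), 1048 (ES) and 602 (BMMNC). A level can be compared between arrays for 1 probe but not between probes. The number of arrays limits the precision: the only replicate spread is that between the iPS lines, and the single ES and BMMNC arrays were taken to vary like them. The labels do not say whether the lines came from separate animals, so p-values hold only for these samples. They rest on the spread between the iPS lines, which limma combined with a spread estimated over all genes tested. The labelled cell types carried their markers. The 12 pluripotency markers tested were well above background in both iPS lines and in ES cells, and the 10 marrow markers in BMMNCs. Being well above background did not by itself separate the cell types. Of the pluripotency markers, 4 were so in BMMNCs too. Of the marrow markers, 4 were so in each iPS line and 5 in ES cells.

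All 5 trophoblast regulators were well above background in both iPS lines, 3 of them in ES cells and 1 in BMMNCs. Both iPS lines stood above the ES array for every one of the 5, and the ES array stood above the BMMNC array for the 3 genes it measured. In RNA of a whole culture, more cells with a transcript and more transcript per cell cannot be told apart.

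Cdx2, the caudal-type homeobox gene that specifies trophectoderm, had a processed signal of 509 in iPS 7 and 482 in iPS 13, 93.2 in ES cells and 4.15 in BMMNCs. The lines lay close together and far above ES cells, and the BMMNC spot was not well above background. Its levels were -1.14 and -1.22 in the iPS lines and -3.49 in ES cells. Esx1, an X-linked homeobox gene of the placental labyrinth, had signals of 1191 in iPS 7, 1271 in iPS 13, 499 in ES cells and 4.43, not well above background, in BMMNCs. Line 13 stood slightly above line 7 here, the only member with that order, and both lines stood above ES cells.

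Elf5, the ETS-domain factor of trophoblast stem cells, had signals of 77.9 in iPS 7, 65.8 in iPS 13, 23.0 in ES cells and 5.62 in BMMNCs. It passed the background mark in the iPS lines only. Hand1, the bHLH factor of trophoblast giant cells that is also used in heart and extraembryonic mesoderm, had signals of 152 in iPS 7, 61.5 in iPS 13, 10.4 in ES cells and 5.53 in BMMNCs. Its iPS lines stood apart from each other, and neither ES cells nor BMMNCs passed the background mark. The scanner software's own errors were 16.7 and 11.4 for the iPS spots of Hand1.

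Ascl2, the imprinted bHLH gene of the spongiotrophoblast, was well above background on all 4 arrays, with signals of 161 in iPS 7, 142 in iPS 13, 102 in ES cells and 42.0 in BMMNCs. Its levels lay in a narrow band, -2.80 and -2.98 in the iPS lines, -3.36 in ES cells and -3.84 in BMMNCs. Neighbours in this order differed by 0.18 (iPS 7 over iPS 13), 0.47 (iPS mean over ES) and 0.48 (ES over BMMNC). Probes with 10 spots had, for signals of 40 to 200, median SDs over spots of 0.11 to 0.14 (log2), so a single spot leaves part of such differences uncertain.

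**Figure D1:**
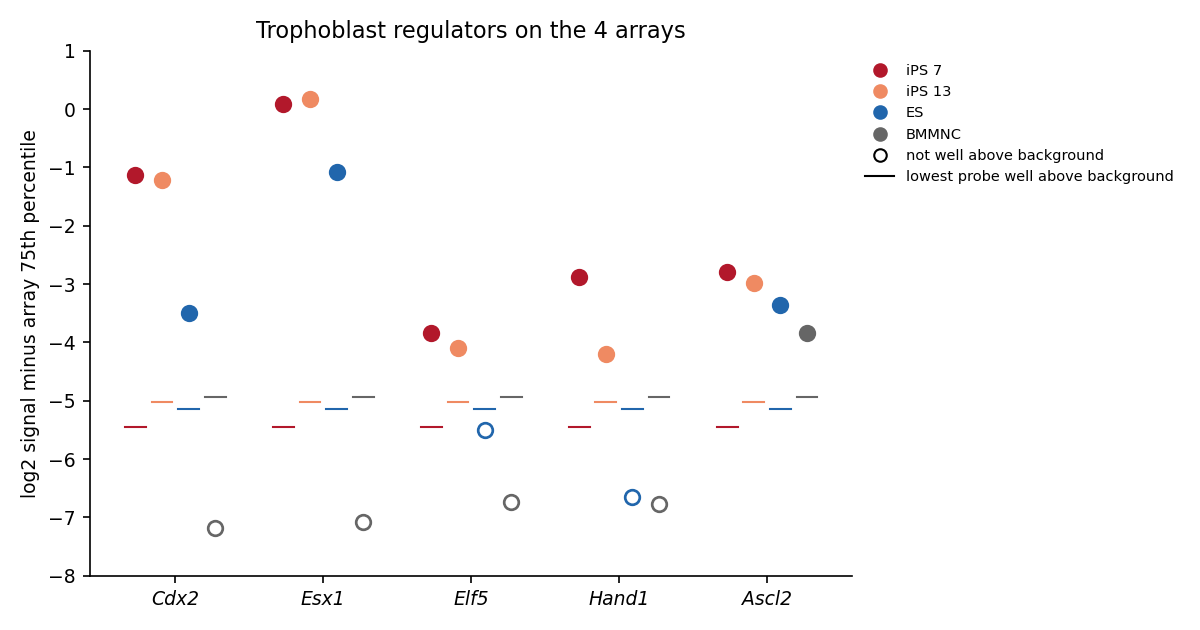
Level of each gene on each array, as log2 signal minus the array's 75th percentile; filled circles are well above background, open circles are not, and short lines mark the dimmest probe well above background on that array. For all 5 genes both iPS circles stand above the ES circle, and for 4 genes the BMMNC circle is open.

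Compared with ES cells, 2 of the 5 genes rose in the iPS lines at an adjusted p under 0.05 in limma (Benjamini-Hochberg over all 21216 genes), and none fell. Over all genes 4.77% passed that threshold, 1.95% upwards and 2.83% downwards. For Cdx2 the log2 difference was 2.31 (SE 0.10, 4.97-fold, limma adjusted p = 0.0425). It was 5.11-fold above ES cells in line 7 and 4.82-fold in line 13. Esx1 rose by 1.21 (SE 0.10, 2.31-fold, limma adjusted p = 0.0464).

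The other members did not pass, which does not show that they were equal. On simulated arrays with 200 changed genes, the fit recovered 0% of 2-fold and of 4-fold changes, 40% of 8-fold and 72% of 16-fold ones. The data gave 1013 calls, among them Esx1, at between 2-fold and 4-fold. The simulated shares therefore do not measure the sensitivity of the fit to these data. Elf5, not well above background in ES cells, was at least 2.25-fold higher than there. At its own ES signal it differed by 1.54 (limma adjusted p = 0.0546). Hand1 was at least 3.03-fold higher (limma adjusted p = 0.112), with the lines 1.31 apart on the log2 scale, and its SE of 0.68 was more than that of any other member. Ascl2 differed by 0.47 (SE 0.13, limma adjusted p = 0.148). With values not well above background taken at their bound, 3 of 5 members (Cdx2, Esx1 and Elf5) exceeded ES cells by 2-fold or more in each line, a class that held 2.04% of all genes tested. On the same bounds the median difference of the 5 was 1.21, against -0.07 over all genes tested. Elf5 and Hand1 entered the test only through the iPS arrays, where they were high. After normexp background correction, which adds 50 to every signal, Elf5 differed by 0.66 and Hand1 by 0.96 and both passed (limma adjusted p = 0.00372 and 0.0334), under the bounds given above.

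The adjusted p of Cdx2 and Esx1 sat close to the threshold, and the smallest over all genes was 0.0425. With the authors' deposited table in place of the processed signal they were 0.0550 and 0.0559, and with no filter on dim probes 0.156 and 0.182.

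Against BMMNCs all 5 genes rose (limma adjusted p under 0.05), where 75.8% of all genes passed, 38% upwards and 37.8% downwards. Of the 5, 4 were not well above background in BMMNCs and entered the test through other arrays. On their bounds 2 of the 5, Cdx2 and Esx1, were past 2-fold in each line, a class that held 22.7% of genes. The iPS lines had at least 13.5-fold more Cdx2 signal and at least 33.5-fold more Esx1 signal (each with a limma adjusted p = 0.000713). Hand1 was at least 2.63-fold higher (adjusted p = 0.0299), Elf5 at least 1.95-fold higher (adjusted p = 0.00216), and Ascl2 rose by 0.95 (SE 0.13, 1.93-fold, adjusted p = 0.0117). This comparison shares its iPS arrays with the one against ES cells. After normexp the differences were smaller, and under the bound where one is given: 2.55 for Cdx2 and 3.50 for Esx1, which still passed, and 0.07 for Elf5, 0.53 for Hand1 and 0.16 for Ascl2, which did not (limma adjusted p = 0.477, 0.0873 and 0.163). Calls for Elf5, Hand1 and Ascl2 were also lost when the ES array was pooled with the iPS arrays (0.0771, 0.318 and 0.0774).

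ES cells against BMMNCs compares single arrays and has no test. Esx1 was at least 14.5-fold and Cdx2 at least 2.72-fold higher in ES cells, 2 of 5 members past 2-fold, a class that held 25.5% of genes tested. After normexp these differences were 2.44 for Esx1 and 0.77 for Cdx2, under those bounds. Ascl2 stood 0.48 higher, but with normexp the difference turned to -0.12, while Elf5 and Hand1 were not well above background on either array.

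**Figure D2:**
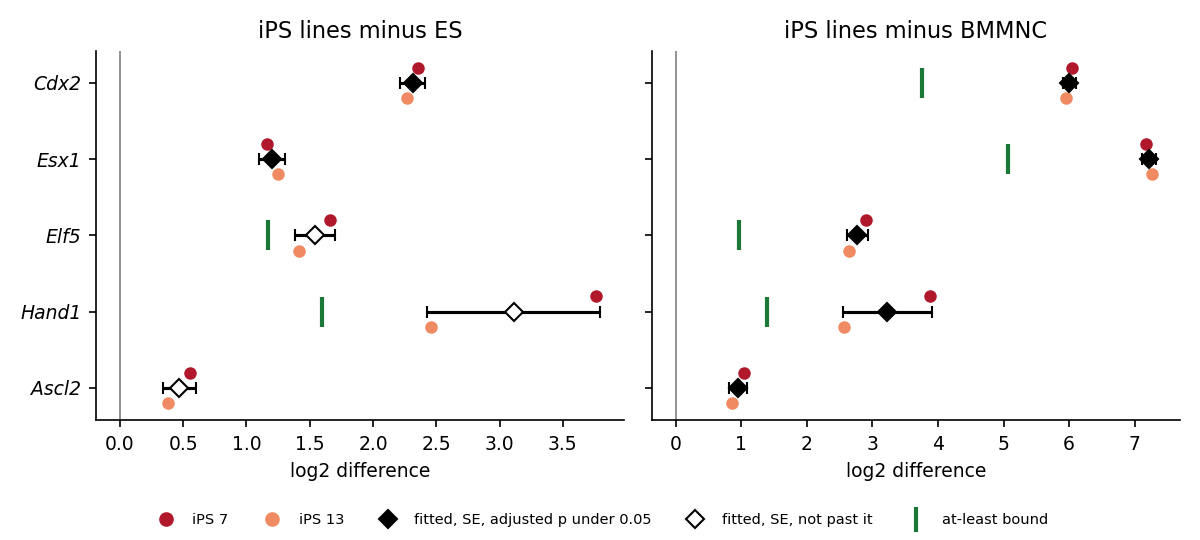
Log2 difference of the iPS lines from ES cells (left) and from BMMNCs (right) for each gene; circles are single lines, diamonds the fitted difference with its SE, filled where the limma adjusted p was under 0.05, and green ticks the at-least bound where the dimmer side was not well above background. Cdx2 and Esx1 carry filled diamonds in both panels, and the lines lie widest apart for Hand1.

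Line 7 against line 13 also compares single arrays. Of the 5 genes, 4 stood higher in line 7, by 0.08 (Cdx2), 0.18 (Ascl2), 0.25 (Elf5) and 1.31 (Hand1), and Esx1 stood 0.09 lower. Hand1, 2.47-fold higher, was the only member past 2-fold, where 0.462% of genes tested were past 2-fold in that direction. Of 17546 genes well above background in both lines, 26 (0.148%) were at least as far apart in either direction, and among 1933 genes within 0.5 of its level 17 (0.879%) were. Normexp left Hand1 0.68 apart, under 2-fold.

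Other factors of the trophoblast stem cell were compared next. Of 25 tested, 4 rose in the iPS lines against ES cells, 1 fell and 20 did not pass, with a median of 0.16. Over all genes tested 1.95% rose and 2.83% fell. Gata3, whose product acts in parallel with CDX2 in the trophectoderm, rose by 2.54 (SE 0.12, adjusted p = 0.0425). Eomes, the T-box factor needed for trophoblast proliferation, rose by 2.04 (SE 0.09, adjusted p = 0.0425). Plet1, a surface protein of trophoblast progenitors, rose by 2.41, and Id2, an inhibitor of bHLH factors, rose by 1.69. Satb1, a chromatin organiser, fell by 1.23 (limma adjusted p = 0.0479). Gata2 differed by 1.36 (limma adjusted p = 0.0557), past 2-fold but not past the threshold. Against BMMNCs 15 of the 25 rose and 9 fell, where 75.8% of all genes passed. The Hippo pathway co-activators Yap1 and Wwtr1 exceeded the BMMNC level by at least 74.5-fold and at least 75.1-fold. From ES cells they differed by 0.22 and 0.10, without passing. Gata2 was among the genes that fell against BMMNCs, with a difference of -2.60.

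Of 36 genes of differentiated trophoblast on the array, 18 were not well above background on any array, among them Tpbpa and Tpbpb of the spongiotrophoblast, the prolactin-family genes Prl8a8 and Prl8a9, the placental cathepsins Ctsq and Ctsj, and Gcm1 and Synb of the syncytiotrophoblast. Of all genes, 21216 of 33378 were well above background on at least 1 array. Prl3b1, also of the prolactin family, was well above background on all 4 arrays. Its levels were -2.45 and -2.57 in the iPS lines, -2.15 in ES cells and -2.30 in BMMNCs. Of the 18 tested, 2 rose against ES cells and none fell, where 1.95% of all genes rose. Cited1, a transcriptional co-activator, rose by 1.28 (limma adjusted p = 0.0448). The median difference of the 18 was 1.11. Another 5 exceeded ES cells by 2-fold or more in each line without passing: the simple-epithelium keratins Krt7 (1.90) and Krt18 (2.05), the X-linked homeobox genes Rhox6 (2.25) and Rhox9 (1.86), and Ovol2 (1.07). Against BMMNCs 13 of the 18 rose and 2 fell, where 75.8% of all genes passed.

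Of these genes 15 were well above background in both lines, and 14 of the 15 stood higher in line 7, with a median of 0.18, against 42.1% of all 17546 such genes and their median of -0.02. Krt8 was past 2-fold there, as Hand1 was, with levels of 4.10 in line 7 and 2.93 in line 13, and was named after its values were seen. Plac1 and Peg10, placental genes, entered the test only through line 7, with levels of -3.65 and -4.42 there, and were not well above background in line 13. Krt18 stood 0.90 and Krt7 0.86 higher in line 7. Over the same arrays all 16 feeder fibroblast markers stood higher in line 7 (median 0.14), and all 12 pluripotency markers stood lower (median -0.13). Also higher in line 7 were 12 of 13 bHLH partners and inhibitors, 8 of 11 primitive endoderm markers and all 4 marrow markers. Of the trophoblast stem cell factors 11 of 25 were, of genes around Ascl2 7 of 16, and of caudal and mesoderm genes 8 of 15. The part of the feeder and pluripotency genes in the Hand1 difference was not tested.

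**Figure D3:**
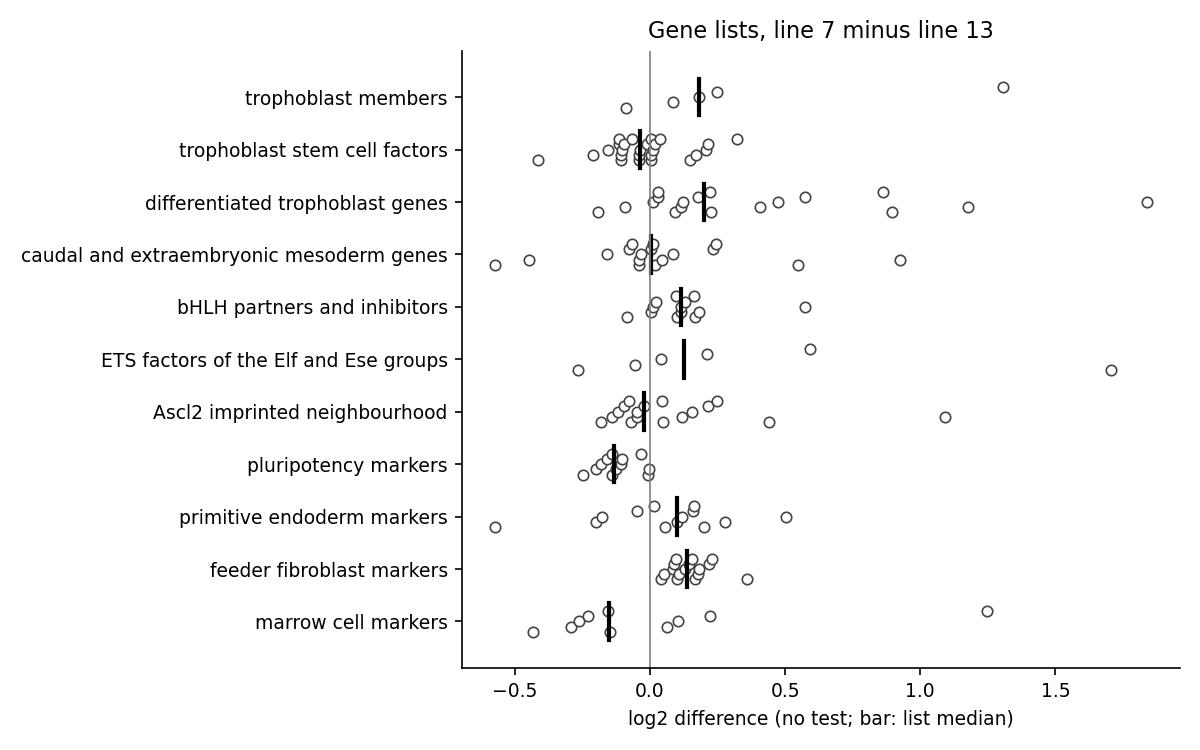
Log2 difference of line 7 from line 13 for the genes of each list that were tested; circles are genes and black bars list medians, without a test. Hand1 is the rightmost circle of the top row at 1.31, and Plac1, not well above background in line 13, and Krt8 are the rightmost of the differentiated trophoblast row.

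Cdx2 and Hand1 also serve the caudal embryo and the extraembryonic mesoderm, and genes of those tissues were examined for that reason. Of 17 tested, 4 rose against ES cells, where 1.95% of all genes rose, and none fell. The median of the 17 was 0.28. Cdx1, the caudal paralogue, rose by 1.53 and Evx1, a homeobox gene of the posterior streak, by 1.75 (limma adjusted p = 0.0436 and 0.0467). Wnt3a, a signal of the tail bud, rose by 1.96 (limma adjusted p = 0.0425), and Eomes, in this list too, was the fourth. Of the 17, 12 stood higher in the iPS lines than in ES cells. Among those that stood lower, Fgf8 differed by -0.84, Nkx2-5 by -0.80 and Tbx6 by -0.76, without passing. Cdx4, T, Mixl1, Mesp1, Hand2, Foxf1, Tbx20, Tbx4 and Isl1 were not well above background on any array. Of all genes, 21216 of 33378 were so on some array. Against BMMNCs 12 of the 17 rose and 2 fell, where 75.8% of all genes passed, and Cdx1 was at least 3.06-fold higher.

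HAND1 and ASCL2 bind DNA together with E proteins, and inhibitors of the Id group withhold those partners. Of 13 partners and inhibitors tested, Id2 rose against ES cells and none fell, where 1.95% of all genes rose. Id1 differed by -0.51, Id3 by 0.45 and Id4 by -0.44, without passing. Against BMMNCs 8 rose and 3 fell, where 75.8% of all genes passed, and the E protein gene Tcf3 fell by 1.12. The 3 probes of Tcf4, another E protein gene, disagreed, with differences of -0.91 (the probe used), -0.10 and 0.82. Of 6 ETS factors related to Elf5, Elf3, an epithelial factor, rose by 1.13 against ES cells (adjusted p = 0.0462) and none fell. Against BMMNCs 1 of these 6 rose and 4 fell, among which Elf1 fell by 2.28 (-0.70 on its other probe) and Elf2 fell by 0.54.

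Ascl2 lies in an imprinted domain of chromosome 7. Of 17 genes of that domain and its borders tested, 1 rose against ES cells and none fell, where 4.77% of all genes passed. The median difference of the 17 was -0.10. The gene that rose was Tspan32, a tetraspanin of blood cells and the next gene to Ascl2 in order, by 1.43 (limma adjusted p = 0.0448), while against BMMNCs it fell by 6.00. Igf2, a fetal growth factor, differed by 0.50 and Ins2 by -1.01 from ES cells, neither past the threshold, and against BMMNCs Igf2 was at least 448-fold higher and Ins2 at least 1.88-fold higher. Among genes near Cdx2, Gsx1 differed by 0.16, Polr1d by -0.07 and Pan3 by -0.19 from ES cells, none past the threshold. Pdx1 and Urad, the genes next to Cdx2, were not well above background on any array, and Flt3 was so in BMMNCs alone. Ehf, the ETS gene next to Elf5, was well above background in BMMNCs alone.

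**Figure D4:**
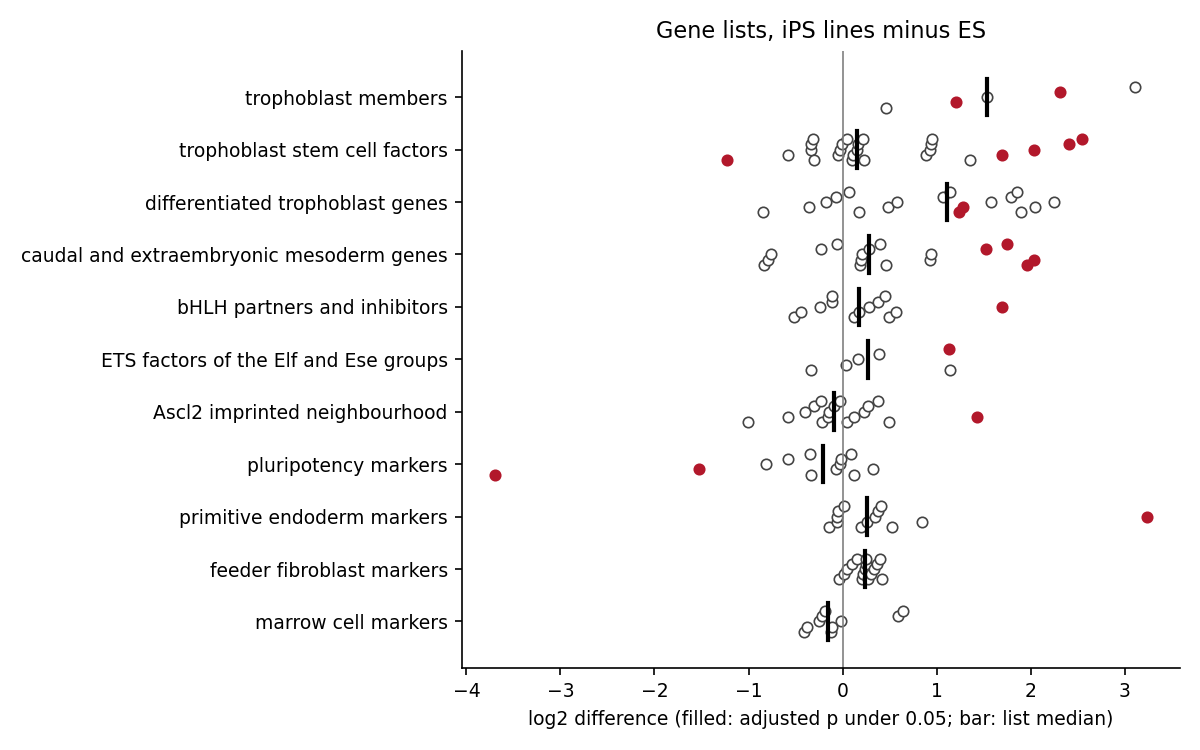
Log2 difference of the iPS lines from ES cells for the genes of each list that were tested; circles are genes, filled where the limma adjusted p was under 0.05, and black bars list medians. The bar of the trophoblast regulators stands at 1.54, the value of Elf5 at its own ES signal, which is not well above background, and that of the trophoblast stem cell factors at 0.16, while feeder markers gather near 0.24 with none filled.

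Markers of other cells in these cultures were set beside these results. Of 16 feeder fibroblast markers, 15 stood higher in the iPS lines than in ES cells, none passed, and the median was 0.24. Their summed level, in multiples of each array's 75th percentile, was 675 and 623 in iPS lines 7 and 13, 575 in ES cells and 256 in BMMNCs. Col1a1 and Col1a2 differed from ES cells by 0.02 and 0.25, and all 16 were well above background on the iPS and ES arrays. In BMMNCs 7 of the 16 were. The highest levels there were those of S100a4 (7.38) and Vim (6.20), while Col1a1 stood at -2.21. Of 13 primitive endoderm markers, 1 rose, Sox7, by 3.24 at its own ES signal, which was not well above background. Among all genes tested 1.95% rose and 2.83% fell. The summed level of the 13 was 55.1 and 51.3 in the iPS lines and 41.5 in ES cells. Among 12 pluripotency markers, Zfp42 fell by 3.70 and Tcl1 by 1.53, while Pou5f1 differed by -0.03. Their part in the trophoblast differences was not tested.

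For each member, the genes with a symbol whose levels ran most alike over the 4 arrays were found by the root mean square (RMS) difference after centring, among genes well above background on the same arrays. Nearest to Cdx2 among 1460 genes were St6galnac2 (RMS 0.10), Tmem30b (0.17) and Plet1 (0.18), the last also in the trophoblast stem cell list. The 2 probes of Plet1 disagreed on the iPS difference from BMMNCs, with 6.39 on the probe used and 3.10 on the other. Nearest to Esx1, among the same number, were Aire (0.07), Sec14l4 (0.11) and Mapt (0.12). Elf5 had Pax1 (0.11), Isl2 (0.14) and Zfy2 (0.15) nearest among 92 genes, and Hand1 had Serpina3c (0.30), Cdcp1 (0.39) and Slc26a9 (0.45) among the same 92. Ascl2, with its small differences, had Adam19 (0.02), Mmd (0.04) and Cry2 (0.04) nearest among 10009. Among the members themselves, Elf5 and Hand1 ran most alike (RMS 0.74) and Esx1 and Ascl2 least (2.63). These distances rest on 4 arrays and include values below background.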

How the data were processed

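Agilent single-colour arrays of 4 samples were analysed from the deposited intensities: the processed signal per spot, background-subtracted by Agilent Feature Extraction 9.5.1.1, per the file headers. The authors' deposited value table was used as an alternative; within each array it is proportional to the processed signal, and its factor differs between arrays. Array signals were scaled as log2 signal minus the array's 75th percentile over non-control spots; outlier-marked spots were dropped, which lost 14 probes. Of 41160 probes, 22948 were named through RefSeq accessions (GRCm38.p6). A gene took its probe with the highest mean level and was tested if a share of 0.5 or more of the spots was well above background on some array. limma 3.58.1 (R 4.3.3) was fitted with 3 group means and 1 residual degree of freedom; p-values were adjusted by Benjamini-Hochberg, threshold 0.05. ES against BMMNC and line 7 against line 13 were described by size alone. "At least N-fold" sets the brighter group's mean against the higher of the dim signal and the lowest signal well above background on that array. A p-value printed beside such a bound tests the fitted difference, in which the dim signal itself is used. The normexp alternative (offset 50) used the median signal and median background, since no mean signal column was in the files. The fit was tested on simulated data (iPS against ES, 21216 genes, 2 false calls). In 2-fold size counts, values not well above background were taken at that bound, a choice made after values were seen. Members and gene lists were chosen with earlier results of these data known. Named genes were all members, list genes past the threshold or at least 2-fold apart in both lines against ES cells, the first 2 of each list against BMMNCs, and the 3 nearest in likeness; others were named after their values were seen. Tead4, Prl3d1, Prl2c2, Syna, Rhox4a, H19, Nanog, Fgf4, Cubn, Cebpe and Ly6g are not analysed here. A list gene that the naming rule gives is not reported here.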

Additional observations from a re-analysis of the deposited data

How the results depend on the processing

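All 5 trophoblast regulators stood higher in the iPS lines than in ES cells under every setting run. Without line 7 or line 13 the differences were 2.27 to 2.35 (Cdx2), 1.16 to 1.25 (Esx1), 1.42 to 1.66 (Elf5), 2.46 to 3.77 (Hand1) and 0.38 to 0.56 (Ascl2), with no test, since no residual degrees of freedom remain. Members past the threshold against ES cells numbered 4 with normexp, 0 with the authors' table, 0 without a filter, 1 with only genes well above background on all arrays (where 1 member is tested), 1 with the mean of probes and 5 with an intensity trend. Against BMMNCs they numbered 2 with normexp, 1 with the all-array filter and 2 with ES and iPS arrays as 1 group. With normexp, 1 member was past 2-fold between ES and BMMNC and 0 between the lines, and Ascl2 reversed to -0.12 (ES minus BMMNC). Counts over all genes, iPS against ES, were 5734 (normexp), 0 (authors' table), 0 (no filter), 5778 (all-array filter), 640 (mean of probes) and 7708 (trend), against 1013. With the authors' table and with no filter, every list count against ES was 0 (for the 5 members and the trophoblast stem cell, differentiated trophoblast, bHLH, Ascl2 neighbourhood, caudal and ETS lists). Normexp gave 12, 11, 6, 5 and 9, and the trend 14, 13, 8, 7 and 10, for the stem cell, differentiated, bHLH, Ascl2 and caudal lists. The all-array filter gave 10, 8, 6 and 6 for the first 4 of these. Median scaling gave 4 differentiated genes, and ETS counts were 0 with the mean of probes and 3 with the trend. Against BMMNCs, the all-array filter gave 2 ETS, 5 caudal and 8 differentiated genes, and no filter 7 bHLH genes. The cause was not tested. No paired analysis was possible because the labels number only the iPS lines. Dim signals limit Elf5 and Hand1, which are bounds in ES cells and BMMNCs.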
